A study of Mus musculus with 228 samples.

Results

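The 34 genes described here are microglia and macrophage genes, read in single mouse hippocampal neurons whose contents were drawn into a patch pipette and sequenced. They were taken from a list of names, all 34 names matched a row of the count table, and they are 34 of its 22870 gene rows. By role, 11 are homeostatic genes of resting microglia, 3 encode the subunits of complement C1q, 11 are linked to activation and phagocytosis, and 9 are shared by myeloid cells and leukocytes. The roles were assigned to gene names and not measured here, so the sets do not show the state of a microglial cell. The study compared 4 groups of cells, and the cells described here passed the authors' quality control. EGFP GC (titled GFP GC) were 47 granule cells of the ventral hippocampus from Calb1-Cre mice that received a Cre-dependent AAV-EGFP alone, a virus that marks cells green. Ascl4 GC were 51 granule cells of the same line that received AAV-EGFP together with AAV-Ascl4, which carries the transcription factor Ascl4. EGFP CA1 were 46 and Ascl4 CA1 45 pyramidal neurons of ventral medial CA1, from Nex-Cre mice with the same viruses. All groups shared the EGFP virus, an age of 3 to 4 months and collection from acute slices 1 month after injection. The controls carried no virus in place of AAV-Ascl4, and cell type and Cre line cannot be told apart.

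Microglia are the resident macrophages of the brain. In the resting state they express receptors such as P2ry12 and Cx3cr1, with which they sense neurons and their surroundings, and when activated they express more genes of phagocytosis, lysosomes and antibody receptors. Their identity rests on transcription factors of the myeloid lineage, foremost PU.1, which the member Spi1 encodes. Neurons are not known as a main source of most of these transcripts.

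PU.1 binds DNA at a purine-rich core, and the promoter windows of members that hold such a core are shown to place the genes. RefSeq promoter windows (GRCm38.p6) were found for 26 of 34 members, and the 250 bases before the start were searched for GAGGAA on both strands (TTCCTC on the other). The core was in 13 of 26 members, against 25.24% of 16351 genes of the count table with a window. The longer form GAGGAAGT, which contains the core, was in 1 of 26 members (3.85%) and 2.67% of all genes. A match is only a match of letters. The stretches below, from members that the results turn on, run 5′ to 3′ along each gene's own strand, and capitals mark the core.
C1qb, chr4:136886201-136886260, minus strand: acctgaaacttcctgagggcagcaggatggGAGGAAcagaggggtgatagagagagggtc
C1qc, chr4:136893072-136893137, minus strand: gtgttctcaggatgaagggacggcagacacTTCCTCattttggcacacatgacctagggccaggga
Ctss, chr3:95526592-95526657, plus strand: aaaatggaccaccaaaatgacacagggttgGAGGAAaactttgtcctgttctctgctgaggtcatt
Trem2, chr17:48346331-48346396, plus strand: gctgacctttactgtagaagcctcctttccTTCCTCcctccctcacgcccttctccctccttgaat
Cd68, chr11:69666360-69666420, minus strand: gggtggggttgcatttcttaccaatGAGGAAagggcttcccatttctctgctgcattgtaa
Cd53, chr3:106790153-106790218, minus strand: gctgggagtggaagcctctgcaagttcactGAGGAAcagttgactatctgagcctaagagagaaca
P2ry13, chr3:59210895-59210960, minus strand: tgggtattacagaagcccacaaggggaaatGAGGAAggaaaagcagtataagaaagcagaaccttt

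Levels are given as counts per 1000000 reads of the genes (CPM), taken from the reads of all cells of a group summed. The exact 95% Poisson intervals cover the counting of reads only, not the spread between cells. The labels name no animal, so each group was treated as a lone sample. A difference between groups therefore has no replicate check and no p-value. Cells had between 1077532 and 25442664 reads. The virally expressed gene Ascl4 was at 14111 CPM in the 51 granule cells with AAV-Ascl4 and at 9395 CPM in the 45 such CA1 cells, at 10 CPM or more in each of them, and at 47.2 and 32.6 CPM in the EGFP groups. Of 10 neuron genes, at least 3 reached 10 CPM in all CA1 cells of both groups, in 45 EGFP GC cells (of 47) and in 50 Ascl4 GC cells (of 51). At least 3 of 9 granule cell genes did so in 43 EGFP GC and 41 Ascl4 GC cells, and at least 3 of 9 CA1 genes in 43 EGFP CA1 and 40 Ascl4 CA1 cells. The granule cell genes summed to 4296 CPM in EGFP GC and 2525 CPM in Ascl4 GC cells, and the CA1 genes there to 49.3 and 255 CPM. Of the 9 granule cell genes 6 were at least 1.5-fold lower, against 29.9% of all genes with a mean of at least 1 CPM. The median log2 ratio of the CA1 genes was 1.26, but 0.19 without each gene's highest cell. At least 3 CA1 genes reached 10 CPM in 5 of 51 Ascl4 GC cells. The numbers in the cells' titles fall into separate runs, 2 in each of 3 groups and 3 in Ascl4 CA1. The labels do not say what the runs are. The first run of each group, and all later numbers together, are called the first and second run, and results are given within them. Nothing in the labels ties the runs of different groups to each other, so runs were matched by number order only. For the CA1 genes in granule cells the median log2 ratio was 0 in the first and 1.99 in the second run. Where 4 values stand in a row, they are in group order, EGFP GC before Ascl4 GC and then EGFP CA1 before Ascl4 CA1.

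The RNA of the 34 members together was lowest in EGFP GC cells, at 823 CPM, and stood at 1975 CPM in Ascl4 GC, 2481 CPM in EGFP CA1 and 5735 CPM in Ascl4 CA1 cells. Cell by cell it spread far more than between groups. In EGFP GC cells the sum ran from 0.96 CPM over a median of 23.9 to 16710.1 CPM, and in Ascl4 GC cells from 0.31 over 147.6 to 18892 CPM. In EGFP CA1 cells it ran from 6.004 over 663 to 33554 CPM, and in Ascl4 CA1 cells from 1.30 over 1367 to 73558 CPM. The medians follow the order of the sums, but the ranges overlap almost wholly. A few cells carried most of the RNA: the 5 cells with the most member reads held 83.7, 63.3, 58.5 and 70.2% of them in group order. The highest cell of all, an Ascl4 CA1 cell from the last run of that group, held 32 of 34 members at 10 CPM or more, 7.36% of its reads were member reads, and it gave 40.98% of its group's member reads. Without the highest cell of each group the sums were 497, 1694, 2134 and 3497 CPM, in the same order. Fewer microglial cells in a sample and less RNA per such cell cannot be told apart here, nor can the cell of origin.

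**Figure D1:**
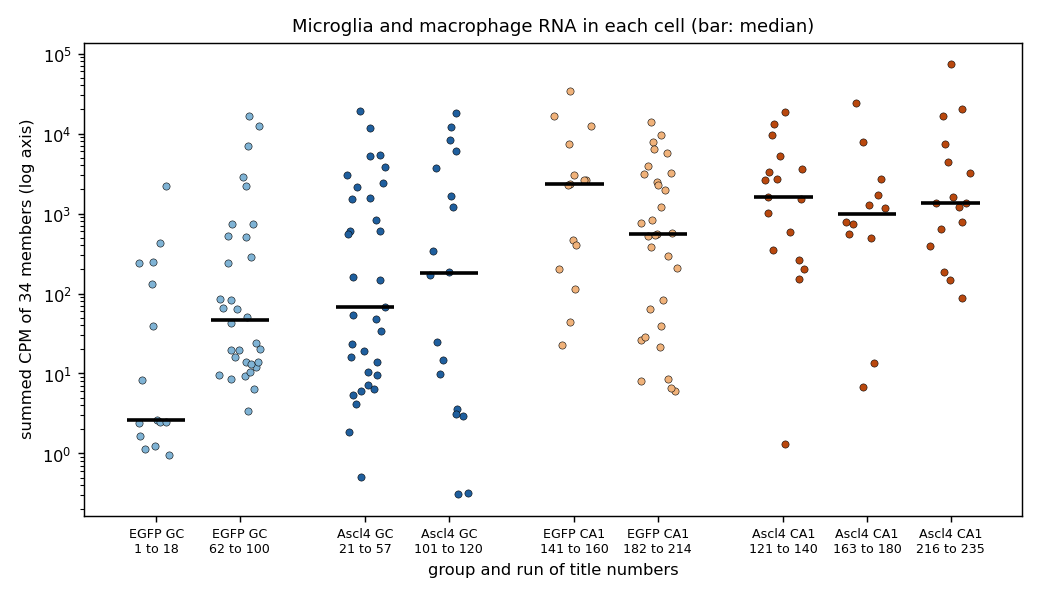
Summed CPM of the 34 members in each cell (log axis), by group and run of title numbers; points are cells and bars are medians. The first run of EGFP GC cells lies lowest, with a median of 2.66 CPM, and the runs overlap throughout.

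Counted by cells rather than by reads, 3 or more members reached 10 CPM in 10 of 47 EGFP GC cells (21.3%, exact Clopper-Pearson interval 10.7 to 35.7%) and 19 of 51 Ascl4 GC cells (37.3%, 24.1 to 51.9%). In CA1 the numbers were 26 of 46 EGFP cells (56.5%, 41.1 to 71.1%) and 35 of 45 Ascl4 cells (77.8%, 62.9 to 88.8%). Neighbours in this order have overlapping intervals, and cells of a group may share an animal. The runs within a group differed as well, with 1 of 15 and 9 of 32 EGFP GC cells, 12 of 33 and 7 of 18 Ascl4 GC cells, 10 of 15 and 16 of 31 EGFP CA1 cells, and 13 of 17, 9 of 12 and 13 of 16 Ascl4 CA1 cells. Each Ascl4 CA1 run lay above both EGFP CA1 runs, and each Ascl4 GC run above both EGFP GC runs. No member reached 10 CPM in 23, 21, 7 and 3 cells of the groups in their order, although every cell had at least 1 member read. After each cell was thinned to 500000 reads, the cells with 3 or more members numbered 10, 19, 26 and 36, a change of at most 1 cell in any group.

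**Figure D2:**
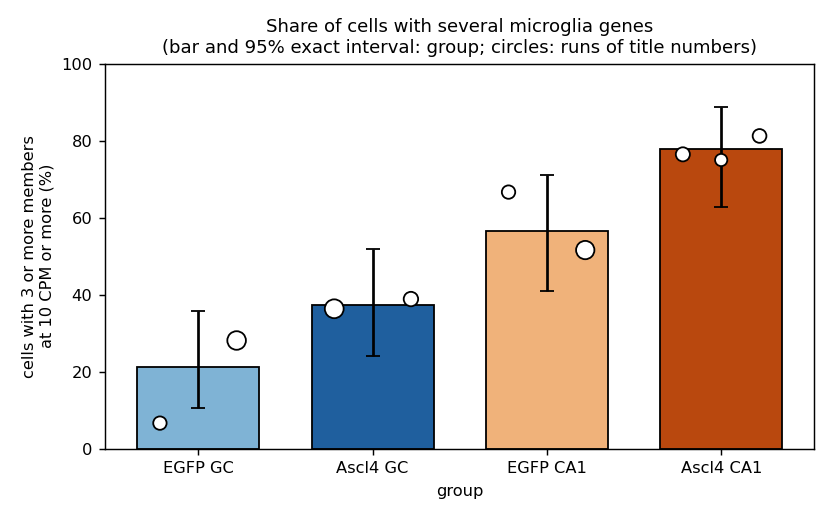
Percent of cells with 3 or more members at 10 CPM or more, by group; error bars are 95% exact binomial intervals and circles are the runs of title numbers, larger with more cells. The bars climb from 21.3% in EGFP GC to 77.8% in Ascl4 CA1, and the first EGFP GC run lies at 6.67%.

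Among the homeostatic members, Csf1r, the receptor for the growth factor on which microglia depend, and P2ry12, the purine receptor of resting microglia, were the highest per kilobase of exon in both EGFP groups. Csf1r stood at 79.5 and 53.1 CPM in EGFP and Ascl4 granule cells and at 230.2 and 166.7 CPM in EGFP and Ascl4 CA1 cells, and P2ry12 at 31.3, 35.3, 102.4 and 95.7 CPM. Csf1r had medians of 0.44, 0.23, 1.27 and 0.54 CPM per cell in the same order and reached 4859, 916, 6282 and 1902 CPM in its highest cells. In the summed reads neither gene was 1.5-fold higher or lower with Ascl4 in granule or CA1 cells. The log2 ratios in granule and CA1 cells were -0.57 and -0.46 for Csf1r, and 0.17 and -0.10 for P2ry12. From mean CPM per cell they were lower, at -1.40 and -1.07 for Csf1r and -0.24 and -0.89 for P2ry12. Within runs, the log2 ratios of P2ry12 and Csf1r were 5.24 and 0.97 in the first and -0.48 and -0.20 in the second run of granule cells, and -1.32 and -2.41 in the first and 0.91 and 1.49 in the second run of CA1 cells. P2ry12 reached 10 CPM in 2, 7, 12 and 9 cells. Cx3cr1, the fractalkine receptor, was at 0.20 CPM (0.14 to 0.27) in EGFP GC against 11.9 CPM in Ascl4 GC cells, and at 30.9 and 40.7 CPM in EGFP and Ascl4 CA1 cells. It reached 10 CPM in 0, 6, 9 and 11 cells of the 4 groups, so that only EGFP GC lacked a cell at that level.

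Tmem119, a membrane protein used to tell microglia from other macrophages, had 2 reads in EGFP GC cells (0.0093 CPM, 0.0011 to 0.034) and stood at 24.2 CPM with Ascl4. In CA1 it was at 1.74 CPM in EGFP and 16.9 CPM in Ascl4 cells. Olfml3, a secreted protein, and Gpr34, a lysophospholipid receptor, were under 1 CPM in EGFP GC and at 22.1 and 19.2 CPM in Ascl4 GC cells. In CA1 Olfml3 was at 50.4 CPM in EGFP and 50.5 CPM in Ascl4 cells, and Gpr34 at 11.4 and 46.8 CPM. Selplg, the ligand of selectins, was at 35.5, 78.7, 110.4 and 98.1 CPM in group order. Siglech, a sialic acid receptor, was at 41.01, 21.5, 50.1 and 67.6 CPM in the same order, and the Fc receptor-like gene Fcrls at 15.1, 9.89, 92.5 and 50.5 CPM. The purine receptor gene P2ry13 was at 0.02, 4.06, 19.7 and 7.75 CPM, and the highest cell gave 89.8% of its reads in Ascl4 CA1. Sall1, the transcription factor of microglial identity, was the only member under the mean of 1 CPM that was asked of all genes, with 0 reads in EGFP CA1 and 2 in EGFP GC cells. It was at 0.52 CPM in Ascl4 GC and 1.13 CPM in Ascl4 CA1 cells, and single cells gave 98.7% and 92.6% of these reads.

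C1q, the starter of the classical complement cascade, is made of 3 chains whose genes lie side by side on chromosome 4 between 136880129 and 136898803. C1qb was at 140.4 and 386 CPM in EGFP and Ascl4 granule cells and at 372 and 988 CPM in EGFP and Ascl4 CA1 cells. Its cells ran from 0 over a median of 0.93 to 4475 CPM in EGFP GC, and from 0 over 1.58 to 3967 CPM in Ascl4 GC. In EGFP CA1 they ran from 0 over 4.31 to 4441 CPM, and in Ascl4 CA1 from 0 over 112.1 to 15486 CPM. The Ascl4 CA1 median was the only one of these above 10 CPM, and the ranges of all groups overlap. C1qa was at 36.8, 80.7, 125.7 and 259 CPM and C1qc at 88.6, 194.2, 240 and 437 CPM in group order. Per kilobase of exon, C1qb was the highest member in all 4 groups, with 129.05, 355, 342 and 908 CPM per kilobase. Of 97 cells with any C1q chain at 10 CPM or more, 45 had all 3, 21 had 2 and 31 had 1.

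Among the activation-linked members, Ctss, a lysosomal protease, was at 53.2 and 355 CPM in EGFP and Ascl4 granule cells and at 268 and 1158 CPM in EGFP and Ascl4 CA1 cells. Its medians per cell were 0.60, 2.23, 12.9 and 21.3 CPM and its highest cells 1911, 3301, 2306 and 15124 CPM. Ctss reached 10 CPM in 3, 16, 23 and 25 cells, so that in CA1 the numbers of cells were close while the amounts were not. The highest cell gave 41.7% of the Ctss reads of Ascl4 CA1.

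Tyrobp, the signalling adaptor of Trem2, was at 66.8, 85.99, 178.9 and 318 CPM, and the lipid receptor gene Trem2 itself at 39.99, 52.1, 66.8 and 178.3 CPM. Trem2 reached 10 CPM in 3, 8, 11 and 20 cells. Cd68, a lysosomal membrane protein of phagocytes, was at 34.9, 76.1, 48.4 and 203.1 CPM, and Aif1, the cytoskeletal protein known as Iba1, at 21.3, 67.3, 92.7 and 204.1 CPM. Aif1 reached 10 CPM in 4, 15, 17 and 28 cells, and it is the member whose highest Ascl4 CA1 cell gave the least of its reads, 18.8%. The Fc receptor chain Fcer1g was at 18.1, 46.3, 81.8 and 165.8 CPM, and Lyz2, lysozyme, at 3.22, 37.6, 35.99 and 124.9 CPM. The antibody receptor genes Fcgr3 and Fcgr2b were at 24.2, 46.1, 60.2 and 156.6 CPM and at 1.62, 4.42, 8.73 and 25.1 CPM.

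Cd14, the co-receptor for bacterial lipopolysaccharide, shows how far a single cell can set a level. It was at 0.060 and 29.1 CPM in EGFP and Ascl4 granule cells and at 47.9 and 288.0 CPM in EGFP and Ascl4 CA1 cells. Its highest cell gave 70.9% of the reads in Ascl4 GC, 98.01% of those in EGFP CA1 and 76.9% of those in Ascl4 CA1. It reached 10 CPM in 0, 4, 2 and 10 cells. Mpeg1, the pore-forming protein of macrophages, had 1 read in EGFP GC and stood at 2.83 CPM in Ascl4 GC cells. In CA1 it was at 9.57 CPM in EGFP and 8.72 CPM in Ascl4 cells, and a single EGFP cell gave 99.9% of the reads of its group.

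Of the genes shared by myeloid cells, Spi1 was at 0.12 CPM (0.075 to 0.17) in EGFP and 40.5 CPM in Ascl4 granule cells and at 18.7 and 76.1 CPM in EGFP and Ascl4 CA1 cells. It reached 10 CPM in 0, 6, 5 and 12 cells. The lysosomal protein gene Laptm5 was at 20.9, 77.2, 52.3 and 165.6 CPM. Ly86, which encodes a partner of a Toll-like receptor relative, was at 2.19, 53.1, 31.2 and 80.8 CPM, and the tetraspanin gene Cd53 at 0.037, 18.2, 21.99 and 71.1 CPM. Pld4, an exonuclease of endosomes, went its own way, with 28.9 and 24.02 CPM in EGFP and Ascl4 granule cells, and 0.048 CPM (0.025 to 0.084) in EGFP against 93.98 CPM in Ascl4 CA1 cells. It reached 10 CPM in 2, 8, 0 and 8 cells. Irf8, a transcription factor of macrophages, was at 36.6, 14.9, 8.93 and 26.1 CPM. The integrin gene Itgam was at 2.18, 2.30, 7.24 and 19.03 CPM. Ptprc, the leukocyte phosphatase CD45, was at 0.0093, 0.33, 4.54 and 37.8 CPM, with 99.3% of the EGFP CA1 reads in a single cell. The lymphoid and myeloid factor Ikzf1 had 0 reads in EGFP GC (3 reads would be 0.014 CPM) and was at 0.37, 0.052 and 7.52 CPM in the other groups.

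**Figure D3:**
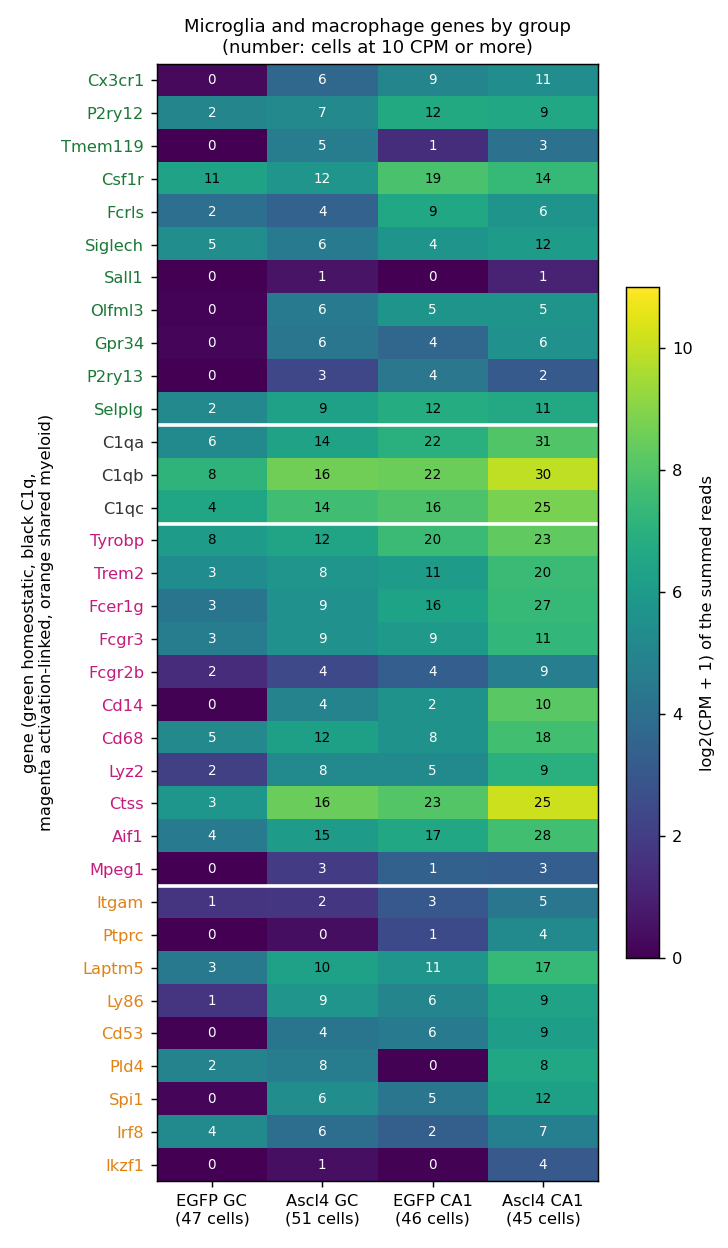
Level of each member in each group as log2(CPM + 1) of the summed reads (colour), with the number of cells at 10 CPM or more written in each field; members are ordered by role. C1qb and Ctss are brightest in every Ascl4 group, and Ascl4 CA1 holds the most cells for C1qa (31), C1qb (30) and Aif1 (28).

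Ascl4 granule cells held more of these genes than EGFP granule cells. A gene is called higher or lower when its summed CPM, with 1 CPM added to both groups, differs at least 1.5-fold, and by this rule 23 of 34 members were higher, 2 were lower (Siglech and Irf8) and 9 lay between. Of the 13681 genes with a mean of at least 1 CPM over the groups, among them 33 members, 29.1% were higher and 29.9% lower. The median log2 ratio was 1.12 over the members and 0.00 over those genes. By role, 7 of 11 homeostatic, 3 of 3 C1q, 9 of 11 activation-linked and 4 of 9 shared members were higher, with median log2 ratios of 1.12, 1.12, 1.30 and 0.46. The largest log2 ratios belonged to Spi1 (5.22), Cd14 (4.83), Tmem119 (4.64), Olfml3 (4.43) and Cd53 (4.21), all of them at or under 0.12 CPM in EGFP GC cells. They reached 10 CPM in only 6, 4, 5, 6 and 4 of 51 Ascl4 GC cells, and in 0 EGFP GC cells. Their medians per cell were 0 CPM in both groups. Ctss (2.72), Laptm5 (1.84), Aif1 (1.62) and C1qb (1.45), which were at 20.9 CPM or more in both groups, followed with smaller ratios. Cells at 10 CPM were at least 10 percentage points more frequent for 17 members and less frequent for 0, against 9.4% and 8.54% of all genes. The median was 3.36 in the first run and 0.97 in the second, where EGFP GC cells held more of this RNA (1155 CPM in place of 166.9 CPM). Of the 23 higher members, 18 were at least 1.5-fold higher in both runs and without their highest cell, and Siglech was lower throughout, while Irf8 was higher in the first run (3.33). Without cells of more than 12000 genes, 4 of them Ascl4 GC cells, 19 members were higher and 6 lower.

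Ascl4 CA1 cells likewise held more of these genes than EGFP CA1 cells in the summed reads, but not in both runs. In the summed reads 25 members were higher, 2 were lower (Fcrls and P2ry13) and 7 lay between, against 28.4% higher and 25.9% lower of all genes, and the median log2 ratio was 1.36 over the members and 0.02 over all genes. All 9 shared, 3 of 3 C1q and 10 of 11 activation-linked members were higher, but only 3 of 11 homeostatic members (Tmem119, Gpr34 and Sall1, which had no read in EGFP CA1), and the medians were 1.65, 1.04, 1.40 and 0.00. In the first run the median over the members was -0.41, with 4 members higher and 16 lower, and in the second run it was 2.80, with 33 higher and 0 lower. The first EGFP CA1 run held 4320 CPM of member RNA and the second 1468 CPM, against 2786 and 8113 CPM in the Ascl4 CA1 runs. A single cell gave 52.3% of the member reads of the second Ascl4 CA1 run. Without the highest cell of each run the sums were 3382 and 1361 CPM in EGFP and 2113 and 4105 CPM in Ascl4 CA1 cells. The later title numbers pooled in the second Ascl4 CA1 run fall into separate runs at 4386 and 11290 CPM. Without the highest cell of each they were at 1888 and 3836 CPM. Pld4 (log2 ratio 6.5), Trem2 (1.40), Cd68 (2.05) and Ikzf1 (3.02) were at least 1.5-fold higher in both runs and without their highest cell, and no other member was. Over all sequenced cells, those left out by the quality control included, 13 members were higher and 8 lower. Cells at 10 CPM were at least 10 points more frequent for 14 members and less frequent for 1 (Csf1r), against 13.5% and 8.35% of all genes.

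**Figure D4:**
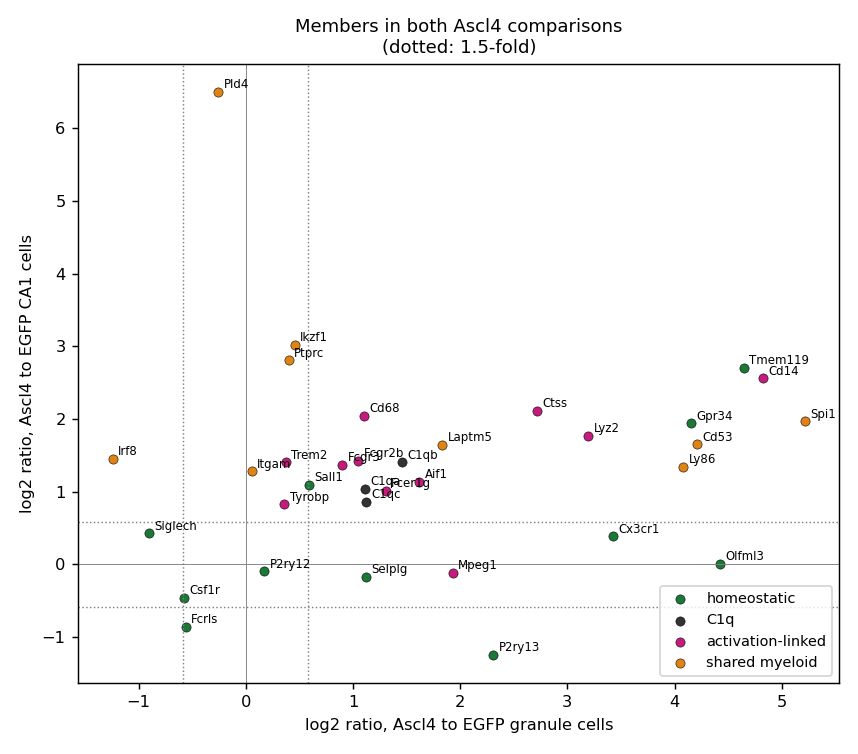
Log2 ratio of each member between Ascl4 and EGFP cells in granule cells (horizontal axis) and in CA1 cells (vertical axis), coloured by role; dotted lines mark 1.5-fold. The C1q genes and 8 of the activation-linked members lie above 1.5-fold on both axes, while homeostatic members lie on both sides of 0.

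The groups of the Ascl4 comparisons share no cells, and 18 of 34 members were higher in both, against 10.1% of all genes. They were 8 of 11 activation-linked members (Fcer1g, Fcgr3, Fcgr2b, Cd14, Cd68, Lyz2, Ctss and Aif1), all 3 C1q genes, 4 of 9 shared members (Laptm5, Ly86, Cd53 and Spi1) and 3 of 11 homeostatic members (Tmem119, Sall1 and Gpr34). P2ry12 and Csf1r lay between in both. Of the 18, only Cd68 was at least 1.5-fold higher in both runs and without its highest cell in both cell types. In the first run of CA1 cells the log2 ratios of C1qa, C1qb and C1qc were -0.22, -0.68 and -2.08.

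The balance of summed CPM between homeostatic and activation-linked members differed between Ascl4 and EGFP cells in both cell types. Summed over each set of 11, the homeostatic members were at 202.8 CPM in EGFP GC and 280.4 CPM in Ascl4 GC cells, a ratio of 1.38, and the activation-linked members at 263 and 803 CPM, a ratio of 3.05. In CA1 the homeostatic members were at 699.7 CPM in EGFP and 642 CPM in Ascl4 cells, a ratio of 0.92, and the activation-linked members at 899 and 2831 CPM, a ratio of 3.15. The log2 ratio of homeostatic to activation-linked CPM was thus -0.38 and -1.52 in EGFP and Ascl4 granule cells and -0.36 and -2.14 in EGFP and Ascl4 CA1 cells. The difference of Ascl4 minus EGFP was -1.14 in granule cells and -1.78 in CA1 cells. It was negative in both runs of both cell types, at -1.81 and -0.76 in granule cells and -2.29 and -1.01 in CA1 cells. In granule cells the size depends on Ctss and Csf1r, the latter read with less certainty. Without the most abundant member of each set the difference was -0.21, and in CA1 cells it was -1.39. Gene by gene, the median log2 ratios in granule cells were 1.12 for homeostatic and 1.30 for activation-linked members. Over members with a mean of at least 1 CPM they were 1.72 and 1.30, the other way round. In CA1 cells the medians over all members of the sets were 0.00 and 1.40. The EGFP groups themselves varied between runs, from 0.09 to -1.11 in EGFP CA1 cells.

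The same balance can be read in single cells. Among cells with at least 100 member reads, the homeostatic share of the CPM of both sets had a median of 36.6% over 25 EGFP and 28.3% over 31 Ascl4 granule cells, and of 43.8% over 40 EGFP and 19.2% over 42 Ascl4 CA1 cells. Within the runs the medians were 16.5% and 41.7% in EGFP and 15.2% and 36.05% in Ascl4 granule cells. In CA1 they were 46.05% and 27.9% in EGFP and 11.8% and 22.9% in Ascl4 cells. In granule cells the gap within both runs was thus smaller than the pooled one. In CA1 cells it was larger than the pooled gap in the first run and much smaller in the second. Within every group the share ran from at most 0.086% to at least 97.9%, so the groups overlap. Members of both sets reached 10 CPM in 9, 14, 26 and 27 cells, activation-linked members alone in 6, 8, 5 and 10 cells, and homeostatic members alone in 6, 4, 6 and 3 cells, in group order.

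**Figure D5:**
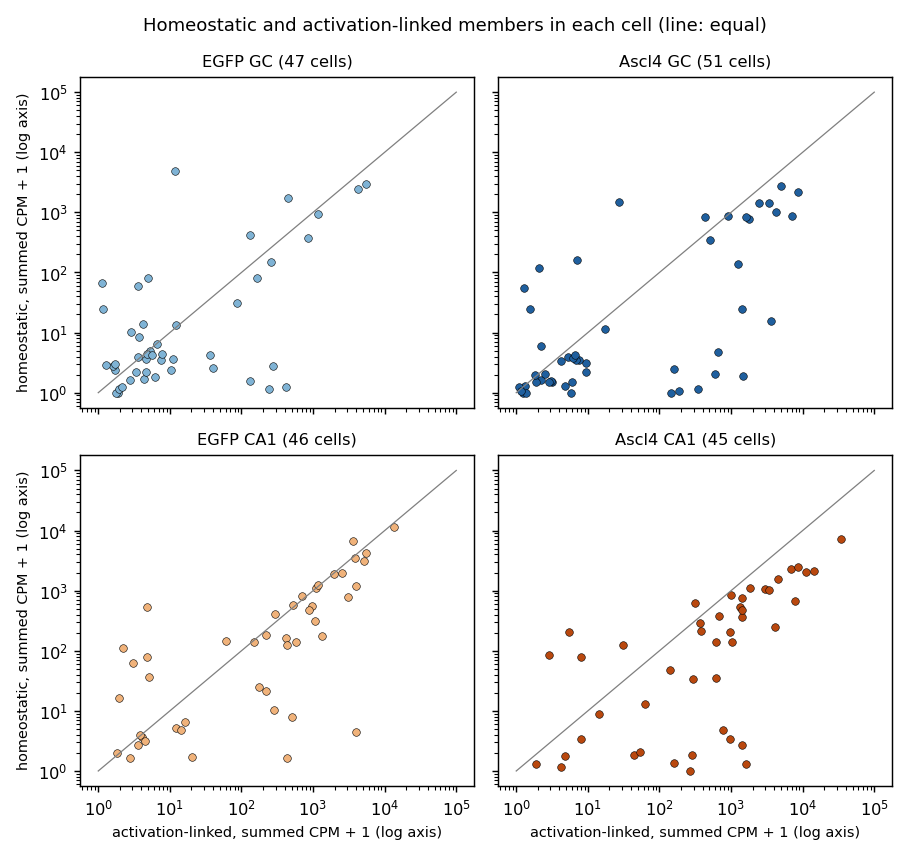
Summed CPM of the activation-linked members (horizontal) against that of the homeostatic members (vertical) in each cell, with 1 CPM added, on log axes, by group; the line marks equal sums. Cells high in both sets lie along the line in EGFP CA1 and mostly under it in Ascl4 CA1, and each group holds cells high in activation-linked members with homeostatic sums near 1.

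Between the EGFP groups, CA1 cells held more of these genes than granule cells. Of the members, 28 were higher, 2 were lower (Pld4 and Irf8) and 4 lay between, against 33.5% higher and 26.6% lower of all genes, and the median log2 ratio was 1.71 against 0.06 over all genes. For the homeostatic members the median was 1.68 (9 of 11 higher), and for the activation-linked members 2.07 (10 of 11 higher). Olfml3 (5.58), Cd14 (5.53), Cx3cr1 (4.73), Cd53 (4.47) and P2ry13 (4.34) had the largest ratios, and Pld4 (-4.83) the lowest. Without its highest cell the ratio of Cd14 was 0.98 and that of Ptprc was 0.05 in place of 2.46. Cells at 10 CPM were at least 10 points more frequent for 19 members and less frequent for 0, against 25% and 5.72% of all genes. The median was 5.18 in the first runs and 0.37 in the second, with 16 members higher and 5 lower there.

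The members were found together in the same cells. Of cells with a given member at 10 CPM or more, at least 90.5% held 2 or more other members at that level for every member but Csf1r, for which it was 39 of 56 cells (69.6%). These shares pool the cells of all 4 groups. Of all cells, 21.3, 37.3, 56.5 and 77.8% held 3 or more members at that level, in group order. All 30 cells with P2ry12 held Tyrobp, and 16 of them held Cx3cr1, which is 61.5% of the 26 Cx3cr1 cells. For the 28 members at 10 CPM in at least 10 cells, the correlation across the cells of a group between a member's log2(CPM + 1) and the mean over the members had a median over groups between 0.40 and 0.83. The mean contains the member itself, the cells share depth and pipette, and the middle gene among all others had 0.04. Among the 12 other genes with the highest such medians were Abi3 (0.79), Litaf (0.72), Cd52 (0.71), Gngt2 (0.70), Lyz1 (0.69), Gltp (0.69), Unc93b1 (0.69), C3ar1 (0.69), Ccl4 (0.68), Bcl2a1b (0.67) and Trf (0.67). Ccl4, a chemokine, was at 29.2, 301 and 94.5 CPM in EGFP GC, Ascl4 GC and EGFP CA1 and at 1081 CPM in Ascl4 CA1 cells, where it reached 10 CPM in 33 of 45.

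Other lists place the members among cell types. Of further microglia genes, 19 of 27 that passed the filter were higher and 2 lower in Ascl4 GC (29.1% and 29.9% of all genes), and 15 were higher and 5 lower in Ascl4 CA1 cells (28.4% and 25.9% of all genes). Of genes linked to disease-associated microglia, 14 of 23 were higher and 2 lower in Ascl4 GC, and 18 were higher and 1 lower in Ascl4 CA1 cells, beside the same shares of all genes. In the first and second run of CA1 cells the median log2 ratio of further microglia genes was -0.92 and 2.29. That of disease-associated genes was 0.20 and 2.55. In granule cells these medians were 1.78 and 1.69, and 2.24 and 0.42. In Ascl4 GC and in Ascl4 CA1, 4 of 27 further microglia genes gained at least 10 points of cells at 10 CPM. Of all genes 9.4% and 13.5% did so, and of 23 disease-associated genes 10 and 9. One of the disease-associated genes, Fth1, ferritin heavy chain, reached 10 CPM in every cell. The chemokine gene Ccl3, chosen after its values were seen, was at 1.19, 120.8, 32.3 and 513 CPM. The defining genes of border macrophages summed to 24.9, 14.7, 12.6 and 6.84 CPM, with 7, 4, 6 and 0 of 14 genes without a read, and T and NK cell genes to 0.02, 0.52, 12.5 and 27.9 CPM. Neutrophil genes summed to 0.14, 0.30, 77.7 and 3.82 CPM, and monocyte and dendritic cell genes to 48.5, 59.2, 14.7 and 15.5 CPM. B cell genes stood at 1380.4 CPM in Ascl4 GC, almost all of it Ighm, of which a single cell gave 99.1%.

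Astrocyte genes summed to 890.4, 789, 857 and 418 CPM, and endothelial genes to 4.08, 13.8, 16.7 and 21.2 CPM. Oligodendrocyte genes summed to 618, 7575, 738 and 880.4 CPM, and the highest Ascl4 GC cell held 116243 CPM of them. Of 11 such genes that passed the filter, 8 were higher and 2 lower in Ascl4 GC (29.1% and 29.9% of all genes). Their median log2 ratio was 2.40 (2.58 without each gene's highest cell), above the 1.12 of the members. The order differed between runs: it was 0.009 in the first and 3.33 in the second run, against 3.36 and 0.97 for the members. In Ascl4 CA1 cells 6 oligodendrocyte genes were higher and 0 lower (28.4% and 25.9% of all genes). The median there was 1.42 (0.19 without each gene's highest cell), with 1.47 in the first and 0.58 in the second run. Interferon response genes went with Ascl4, at 35.03 and 902 CPM in EGFP and Ascl4 GC and 67.8 and 636 CPM in EGFP and Ascl4 CA1 cells. Of the 51 Ascl4 GC cells, 10 held at least 3 interferon genes and 3 members at 10 CPM, 9 only members, 11 only interferon genes and 21 neither. Of the 45 Ascl4 CA1 cells, 21 held both, 14 only members, 2 only interferon genes and 8 neither. Across cells, the log sums of both lists correlated at 0.20 in Ascl4 GC and 0.36 in Ascl4 CA1 cells. The part of the interferon response, the runs or other cell types in the differences of the members was not tested.

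Some members are read with less certainty. Lyz2 with Lyz1, and Fcgr3 with Fcgr2b, are near copies between which reads may be split. The exons of Csf1r overlap those of Hmgxb3 on the other strand by 873 bases, those of P2ry12 overlap Med12l by 9 bases, P2ry13 lies within Med12l and Gpr34 within Cask, both on the other strand. Whether counting used strand is not given in the sources used here, so reads of these pairs may not be told apart. Csf1r was also the member most often found without 2 others. Within a group, the summed member CPM and a cell's reads had Spearman coefficients between -0.29 and -0.07. With the number of genes detected the coefficients were 0.37 in Ascl4 GC and 0.39 in Ascl4 CA1 cells and 0.05 and -0.03 in the EGFP groups.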

How the data were processed

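The authors collected single cells by patch pipette and, per the submitters' processing notes, processed reads with STAR, HTSeq and GRCm38.p4 (tool versions not given in the sources used here). Deposited tables hold raw read counts per gene, for all cells and for those that passed the authors' quality control, and a normalized signal, which the authors made by dividing each cell's counts by 1 factor per cell. Where the design text gives 53, 52, 48 and 51 cells past quality control, 47, 51, 46 and 45 are deposited and were used here. Spike-in rows (92, with 4 reads) were left out.

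Reads of a group's cells were summed and scaled to CPM. Log2 ratios used 1 CPM added to each group, and genes with an unweighted mean of at least 1 CPM over the groups formed the background. Intervals are exact Poisson and Clopper-Pearson at 95%. The Poisson intervals cover the counting of reads only and not of molecules, since reads carry no molecular identifiers. The Clopper-Pearson intervals are over cells. Exon lengths and positions came from a GENCODE annotation of GRCm38. Members and lists were chosen with earlier results of these data known. All members are named, with 11 of the 12 other genes that followed them most closely (1 is not reported here) and up to 3 genes per further list. Of 235 list genes, 234 were found. The ratio script was tested on simulated data.

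Alternatives were other summaries, pseudocounts, filters, edgeR (4.0.16) and DESeq2 (1.42.0) scaling of the counts, the authors' normalized signal, thinning, all cells, each run of title numbers and leaving out cells. Leaving out the cell with the most member RNA was chosen after seeing the data. Python 3.11.15 and R 4.3.3 were used.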

Additional observations from a re-analysis of the deposited data

Results flagged for a closer look

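P2ry13, a purine receptor gene of resting microglia, went opposite ways in the cell types, with a log2 ratio of Ascl4 to EGFP cells of 2.31 in granule cells and -1.24 in CA1 cells. It was at 0.02 and 4.06 CPM in EGFP and Ascl4 granule cells and at 19.7 and 7.75 CPM in EGFP and Ascl4 CA1 cells, and it reached 10 CPM in 0, 3, 4 and 2 cells. The difference between the cell types was not tested, and in the second run of CA1 cells the ratio was 3.74.

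Cells that the authors' quality control left out carried member RNA too. Summed over the members it was 50129 CPM in 8 EGFP CA1 cells, against 2481 CPM in the cells kept, and their highest cell held 70563 CPM. It was 2882 CPM in 5 Ascl4 GC cells and 4512 CPM in 13 Ascl4 CA1 cells, and 422 CPM in 13 EGFP GC cells. The medians per cell differed far less than the sums in EGFP CA1, with 1026 CPM in the cells left out and 663 CPM in those kept. In Ascl4 GC the median was lower in the cells left out, at 38.7 CPM against 147.6 CPM. In EGFP GC and Ascl4 CA1 it was higher in the cells left out. Of the cells left out, 6, 0, 9 and 2 held at least 3 members at 10 CPM, in the order EGFP CA1, Ascl4 GC, Ascl4 CA1 and EGFP GC. Their median depth was between 440912 and 956807 reads.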

How the results depend on the processing

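The difference between Ascl4 and EGFP cells in the log2 ratio of homeostatic to activation-linked CPM was negative in both cell types under the 11 alternatives that could change it (TMM and median-of-ratios scaling leave a ratio within a group as it is). In granule and CA1 cells it was -1.59 and -1.63 from mean CPM per cell, -1.61 and -1.63 without each gene's highest cell, -1.19 and -1.52 without the deepest cells, -1.53 and -1.80 without cells of over 12000 genes, -2.35 and -1.55 from the authors' normalized values, -1.07 and -2.07 over all cells, -1.81 and -2.29 in the first run, -0.76 and -1.01 in the second, -1.63 and -1.65 after thinning, -1.26 and -1.69 without the cell with the most member RNA, and -0.21 and -1.39 without the most abundant member of each set. Members called higher numbered 18 to 27 in Ascl4 GC over 16 alternatives (23 in the report). In Ascl4 CA1 (25) they numbered 13 over all cells and 4 in the first run, where the median log2 ratio turned to -0.41. In EGFP CA1 against EGFP GC (28) they numbered 16 in the second run. Members called lower, 2 in each comparison, were few. In Ascl4 GC they numbered 1 without each gene's highest cell, in the first run and without the cell with the most member RNA, 6 without cells of over 12000 genes, 4 with TMM and in the second run, and 5 with the normalized values. In Ascl4 CA1 they numbered 5 from mean CPM, without each gene's highest cell, after thinning and without the cell with the most member RNA, 0 without the deepest cells and in the second run, 7 with the normalized values, 1 with a filter of 10 CPM, 8 over all cells and 16 in the first run. In EGFP CA1 against EGFP GC they numbered 4 with the normalized values, 1 over all cells, 0 in the first and 5 in the second run. Cells with at least 3 members fell with the cells entered, to 1 in the first run of EGFP GC, 12 and 7 in the runs of Ascl4 GC, 10 and 16 in those of EGFP CA1 and 13 and 22 in those of Ascl4 CA1, and asking for 6 members left 3 EGFP GC and 12 Ascl4 GC cells. The median of all genes between the EGFP groups (0.06) was 0.19 without each gene's highest cell and -0.08 with the normalized values. Causes of these shifts were not tested. No paired analysis was possible because the labels give no replicate numbers that groups share.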
